A study of Mus musculus with 2 samples.

Results

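The miRNA arrays hybridised with small RNA of mouse ureteric bud cells carried 5 control probes for 5S ribosomal RNA, named mmu-5S-b1 to mmu-5S-b5. They were taken from the scanner tables as the probes typed as biological sequence controls with these names. They are 5 of 1088 probes that are not blank, the others being 1040 miRNA probes and 43 calibration probes. Each 5S probe was spotted 4 times per array, 20 of 3968 spots, against 3 times for a miRNA probe.

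In the embryonic kidney the ureteric bud is the epithelium that branches and gives rise to the collecting ducts. Both samples were YFP-positive cells sorted from dissociated kidneys of Rosa26YFP; Hoxb7Cre embryos at E15.5, so a YFP reporter marked cells in which the Hoxb7-driven Cre had been active. Replicate 1 carried Cy3 and replicate 2 carried Cy5, so a difference between the samples and one between the dyes cannot be told apart. Each assay used 4 µg of total RNA, from which the fraction under 300 nt was kept, tailed with poly(A), tagged and stained. The labels do not say whether the samples came from separate litters or preparations, and the series has a single group with nothing to compare it with. Of 5 epithelial miRNAs of the miR-200 family, 3 stood above blank in both samples. Of 16 miRNA markers of mesenchyme, endothelium, blood, muscle, neurons and liver, 0 did so in both and 1, miR-214, in replicate 2 only. Over all 1040 miRNA probes, 62 stood above blank in both samples, and 0 of 16 lies close to that share.

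The 5S RNA is the smallest RNA of the large ribosomal subunit of animal cells. RNA polymerase III transcribes it from tandem gene copies with the help of TFIIIA, which binds a promoter inside the transcribed sequence. Before it enters the ribosome, 5S RNA is bound by the ribosomal proteins Rpl5 and Rpl11, and this particle can also bind Mdm2, the inhibitor of p53. It is not a miRNA and is not processed by Dicer, but it is short enough to be recovered with the small RNA fraction, and array makers use it as a control that does not depend on miRNA content. The RefSeq table of the GRCm38.p6 assembly lists 51 mouse 5S genes annotated as rRNA, 119 to 121 bases long and 40 of them on chromosome 8, beside 18 pseudogenes. No genome build is given for the array, and the sources used here held no sequence of a 5S gene. The probes were therefore not assigned to single copies.

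The target sequences are shown because all 5 report on the same short RNA and their arrangement matters for reading the signals. They are written 5′ to 3′ as in the scanner tables, and capitals mark bases at which the end of a target equals the start of the next one in name order.
mmu-5S-b1: cgcgcccgaucucgucugauCU
mmu-5S-b2: CUcggaagcuaagcagggucGG
mmu-5S-b3: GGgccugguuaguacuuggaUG
mmu-5S-b4: UGggagaccgccuggGAAUACC
mmu-5S-b5: GAAUACCgggugcuguaggcuu

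Each target was 22 bases long. The targets of b4 and b5 shared 7 bases, and each other pair of neighbours shared 2. Among the 20 ordered pairs of these targets, only the 4 pairs of neighbours in name order shared 2 or more bases from end to start. Joined at these bases, the targets formed a run of 97 bases, in which b1 lay at the 5′ end and b5 at the 3′ end. A match of 2 bases does not by itself place a pair of sequences, so the order of b1 and b2 and that of b3 and b4 rest on the probe names and the 2 shared bases. The GC content was 63.6% for b1, b2 and b4 and 54.5% for b3 and b5, against a median of 47.8% for the miRNA targets. None of the 5 targets was contained in any of 1005 mouse miRNA hairpins from RefSeq on either strand.

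A single miRNA target of the array matched the joined 5S run at every base. It is that of miR-2145, 19 bases long, which crossed the junction of b2 and b3 and so tied these neighbours together. It is shown here with the 11 bases that lie in the target of b2 in capitals.
mmu-miR-2145: AGCAGGGUCGGgccugguu
The next closest target, that of miR-3079-5p, matched at 17 of 23 bases.

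All 5 5S probes stood above blank in both samples. A probe was called detected when at least 50% of its spots lay more than 3 SD above the mean of the array's 560 blank spots, that is above 303.2 intensity units in replicate 1 and above 81.1 in replicate 2. By this rule 6.41% of the 1045 miRNA and 5S probes were detected in both samples, and 5 of 5 5S probes were. Every one of the 20 5S spots lay above the limit on each array. The lowest 5S spot reached 1077.3 units in replicate 1, against 916.8 for the brightest blank spot there, and 238.9 units in replicate 2, against 101.0 for the brightest blank. The spot ranges of 5S probes and blanks therefore did not overlap in either sample.

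The probe nearest the 3′ end, b5, was the brightest of the 5. Its spots lay between 11623 and 12887 units in replicate 1, with a median of 12010, and between 3624 and 4290 in replicate 2, with a median of 4039. The median was 39.6 times the detection limit in replicate 1 and 49.8 times in replicate 2. In each sample a single miRNA probe of 1040, miR-709, was brighter. Its medians were 18954 and 6518 units in replicates 1 and 2.

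The neighbour of b5, the probe b4, shares 7 of its 22 bases and was much dimmer. Its spots had 3155 to 3705 units in replicate 1 (median 3349) and 711.7 to 864.6 in replicate 2 (median 837.8). With the median blank of each array subtracted, b5 exceeded b4 by 3.75 times in replicate 1 and by 5.11 times in replicate 2. The spots of b4 and b5 did not overlap in either sample.

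The probe b1, at the 5′ end of the joined run, held different places in the samples. Its spots ranged from 5308 to 5860 units in replicate 1 (median 5452), next to b5 in brightness. In replicate 2 they ranged from 543.3 to 797.8 units (median 684.6), which put it in place 4 of 5. The median was 18.0 times the limit in replicate 1 and 8.44 times in replicate 2.

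The probe b2 had spots from 4421 to 5106 units in replicate 1, with a median of 4603. In replicate 2 they ranged from 504.7 to 1115.8 units, with a median of 985.0. The low end of the second range was a single spot, as the other 3 lay between 974.0 and 1115.8 units. The probe b2 was therefore in place 3 in replicate 1 and in place 2 in replicate 2.

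The probe b3 was the dimmest in both samples. Its spots had 1077 to 1355 units in replicate 1 (median 1135) and 238.9 to 289.0 in replicate 2 (median 253.2). Its median was 3.74 times the limit in replicate 1 and 3.12 times in replicate 2. Here 15 miRNA probes were brighter in replicate 1 and 21 in replicate 2. By contrast, b4 was exceeded by 1 miRNA probe in replicate 1 and by 2 in replicate 2.

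Signal over blank was also tested across all 1045 probes on normalized log2 values. The test was limma's treat with a 2-fold bound and Benjamini-Hochberg adjustment, and it called 4.02% of the probes. All 5 5S probes passed. Their log2 signal over blank was 6.50 ± 0.29 for b5, 4.78 ± 0.22 for b2, 4.72 ± 1.32 for b1, 4.47 ± 0.15 for b4 and 2.79 ± 0.51 for b3 (SD, n = 2 each), against a median of 0.03 over all probes. The largest adjusted p of the 5 by treat, that of b3, was 5.64e-09, while the widest spread between the samples was that of b1. The estimated prior degrees of freedom were infinite, so the p-values rest on a spread shared by probes of like signal and on 2 samples. When the arrays were left without normalization, 2 of the 1045 probes passed treat, and b5 was the only 5S probe among them. The adjusted p by treat was then 0.438 for b1, 0.283 for b2, 1 for b3 and 0.966 for b4. The test with a 4-fold bound, like the one with scaling to the median, was missed by b3. Over all 1045 probes, 18 passed with the 4-fold bound and 6 with scaling to the median.

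Although all 5 targets lie on 1 RNA, the probes differed widely in signal. After subtraction of the median blank, b5 exceeded b3 by 12.7 times in replicate 1 and by 20.4 times in replicate 2. These are differences between probes and not amounts of parts of the RNA, since the affinity of each probe was not measured and the labels do not say whether intact 5S RNA or fragments were captured. The share of b5 in the summed blank-subtracted signal of the 5 probes was 46.2% in replicate 1 and 61.2% in replicate 2, that of b1 20.6% and 9.62%, and that of b3 3.65% and 2.99%. The shares of b2 were 17.2% and 14.2%, and those of b4 12.3% and 12.0%. In replicate 1 the order from bright to dim was b5, b1, b2, b4, b3, and the spot ranges of 0 of 10 pairs overlapped. In replicate 2 it was b5, b2, b4, b1, b3, and the ranges of 3 pairs overlapped, those among b1, b2 and b4. Of the 10 pairs, 8 had the same order in both samples, and 2, b1 with b2 and b1 with b4, had opposite orders. The overlaps in replicate 2 came from the spots in array column 21, where b2 had its single dim spot, and without that position the ranges of 0 of 10 pairs overlapped there. Compared at the same array position, b4 exceeded b1 at 4 of 4 positions in replicate 2, and b2 exceeded each of them at 3 of 4. In replicate 1, b1 exceeded b2 and b4 at 4 of 4 positions.

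The GC content of the 5 targets did not follow the order of brightness, and its part in the signals was not tested. The brightest probe, b5, and the dimmest, b3, had the same GC content of 54.5%. Of the 260 miRNA targets with a GC content in the range of the 5S targets, 10 (3.85%) were detected in both samples. Over all 1040 miRNA probes, 62 were detected in both samples.

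The ratio of replicate 1 to replicate 2 was not the same for the 5 probes. After subtraction of each array's median blank it was 8.38 for b1, 4.75 for b2, 4.79 for b3, 4.04 for b4 and 2.97 for b5. The ratio thus differed by 2.83 times between the ends of the joined run, with b2 and b3 close to each other. Taken spot by spot at the same array position, the ratio ranged from 7.24 to 10.6 for b1, from 3.80 to 4.76 for b4 and from 2.95 to 3.20 for b5. For b3 it ranged from 4.21 to 5.45, and for b2 from 4.50 to 10.02, where the highest value came from its single dim spot in replicate 2. The ratio of b5 was the lowest at 4 of 4 positions, and that of b1 the highest at 3 of 4, the exception being the position of that dim spot. The ranges of b1 and b5 did not overlap with each other. With 1 sample per dye there is no replicate check of these ratios, and no test was made.

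Set beside the 62 miRNAs detected in both samples, the ratios of the 5S probes lay inside the miRNA range, which ran from 0.874 to 23.6 with a median of 3.74. At b1 the ratio exceeded that of 56 of the 62 miRNAs, at b2 and b3 that of 39 each, at b4 that of 33 and at b5 that of 16. Among the 14 detected miRNAs whose replicate 1 signal fell within the 5S range, the median ratio was 3.06 and the range 0.874 to 14.3. Of the 43 calibration probes, 11 were detected in both samples, with ratios from 0.636 to 9.20 and a median of 1.74. The ratio was below 1 for 3 of these. The calibration probes were not matched to the 5S probes in brightness. The dimmest by replicate 1 median, at 426.1, 863.3 and 3320 units, had ratios of 9.20, 4.47 and 4.97. The others, at 20175 units or more in replicate 1, had ratios from 0.636 to 2.10.

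Repeat spots of a 5S probe were about as close to each other as those of a miRNA probe. Between the 4 spots of a probe, the coefficient of variation of blank-subtracted signal was 4.73% to 13.4% in replicate 1, with a median of 6.71%, against a median of 8.09% for the 62 miRNAs. In replicate 2 it was 7.25% to 32.1%, with a median of 12.1%, against a median of 11.8% for the miRNAs. The 32.1% belonged to b2. Within a spot, the SD of the intensity was 1.37% to 9.22% of the mean in replicate 1 and 3.07% to 14.3% in replicate 2. The repeat spots lay in array columns 1, 11, 21 and 31. In replicate 1 the spot in column 11 was the highest for 5 of 5 probes, a median of 11.3% above the probe's own median. In replicate 2 it was the highest for 3 of 5, a median of 6.30% above. The median of the 56 blank spots in column 11 was 224.0 units in replicate 1, against 188.2, 207.4 and 207.2 in columns 1, 21 and 31. In replicate 2 it was 61.5 units, against 58.1, 60.9 and 61.1. The part of array position in the 5S values was not tested.

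Spots beside the 5S spots were dim where their own miRNA was not detected in both samples. Of the spots next to a 5S spot in the same row, 24 belonged to miRNA probes not detected in both samples and 6 to detected ones, let-7e and let-7f. The 24 gave 194.3 to 266.7 units in replicate 1 and 45.8 to 58.9 in replicate 2, and 0 of 24 exceeded the limit on either array. Since these 24 were chosen as not detected in both samples, that count was largely fixed by the choice. The 6 detected ones gave 410.5 to 849.3 units in replicate 1 and 145.1 to 445.2 in replicate 2. All 6 exceeded the limit on each array. The 8 blank spots in the rows directly above and below the 5S block had medians of 195.5 and 64.4 units in replicates 1 and 2, with 0 of 8 above the limit.

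The probe for miR-2145, whose target lies wholly in the 5S run, stayed below the limit in both samples. Its spots were 240.3, 257.3 and 276.8 units in replicate 1 and 57.2, 58.8 and 67.7 units in replicate 2. The medians were 0.849 and 0.724 times the limits. In the same samples b2, which shares 11 bases with that target, was at 15.2 and 12.1 times the limits, and b3, which shares 10, at 3.74 and 3.12 times. In replicate 1 the median of miR-2145 exceeded 243.5 units, which is the limit there without the single brightest blank spot. This probe was picked for its sequence match, which was found after the values of the array had been seen. Its target of 19 bases is shorter than those of b2 and b3.

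Another 3 miRNA probes of doubtful miRNA origin were above the limits. Of 8 listed names known as or suspected to be fragments of transfer, mitochondrial or ribosomal RNA, 7 were on the array. Of these 7, 3 were detected in both samples, against 62 of all 1040 miRNA probes. The 3 were miR-1937b (1376 and 311.5 units in replicates 1 and 2), miR-1937a (861.9 and 186.4) and miR-720 (794.8 and 258.0). Like b3, they lay a few times above the limit, and the other 5S probes were brighter than all 3. Not above the limits were miR-712, miR-712*, miR-715 and miR-1937c, with 221.0 to 247.3 units in replicate 1 and 52.1 to 61.5 in replicate 2.

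The miRNA probes closest in level to each 5S probe were found by distance in log2 raw intensity over the 2 samples. For b3 they were miR-320 (1158 and 226.3 units in replicates 1 and 2, distance 0.16) and miR-20a (1107 and 308.7 units, distance 0.29). For b5 the nearest was miR-709, at a distance of 0.95, and the next, miR-341*, lay 2.67 away. For b1, b2 and b4 they were miR-149* (2536 and 491.1 units) and miR-200c (2110 and 759.5 units), at distances from 0.68 to 1.38. The level of b3 was thus met by miRNA probes, while each of the other 4 was exceeded by 1 miRNA probe in replicate 1 and by 1 to 3 in replicate 2.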

How the data were processed

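For each sample the authors deposited raw scanner output, with a mean intensity and its standard deviation for every spot, per the file headers. These intensities carry no background subtraction or normalization. The sources used here do not give the scanner, the extraction software or a genome build. The authors' processed table holds miRNA probes only and was not used. Members and lists were chosen with earlier results of these data known.

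From the raw intensities the median of repeat spots, the blank limit and blank-subtracted ratios were computed (Python 3.11.15, numpy 2.4.6, pandas 2.3.3). For treat (R 4.3.3, limma 3.58.1), values were corrected with normexp (offset 50), log2-transformed, quantile-normalized over miRNA and 5S spots, reduced to medians and set against the array's blank level, which was carried through the same map. The adjusted p threshold was 0.05. The fit was tested on simulated data. Named miRNAs are the 2 nearest to each 5S probe, the listed small RNAs and markers, and miR-2145, miR-3079-5p, let-7e and let-7f, which were chosen after their values were seen. One listed name, miR-805, matched no probe. Repeat spots are not samples, so no test was made between probes. Alternatives changed the limit, background, normalization, way of combining spots and sample used. The number of arrays limits the precision.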

Additional observations from a re-analysis of the deposited data

How the results depend on the processing

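Limits without the brightest blank spot, blank levels from the 8 spots above and below the 5S block, and the removal of the third spot position were chosen after seeing the data. The 5 of 5 detected probes stayed 5 under all 8 alternatives, which included 6 and 10 blank SD, the 95th percentile of blank spots and either sample alone. The 5 passing treat became 1 without normalization, 4 with a 4-fold bound and 4 with scaling to the median, and remained 5 under the other 4 settings. Over all 1045 probes, 42 passed in the main fit and 2 without normalization. With the 4-fold bound 18 of the 1045 passed, and with scaling to the median 6. The cause of these changes was not tested. With the fit restricted to the 89 probes detected in at least 1 sample, 43 of 89 passed and the prior degrees of freedom were 2.10. These 89 were chosen by detection over blank in the same values, so passing there was partly fixed by the choice. The largest adjusted p of the 5S probes by treat in this fit was that of b1, 0.0117. All 35 alternative values of signal over blank kept their direction and 29 stayed past the threshold. The geometric mean over both samples of the brightest over the dimmest probe was 16.1, between 13.0 and 16.3 under other settings, and 12.7 to 20.4 with either replicate left out. The median ratio of replicate 1 to replicate 2, 4.75, became 3.86 with normexp and lay between 4.48 and 4.86 otherwise. In 6 of 6 alternatives b1 had the highest ratio and b5 the lowest, and 2 of the 5 probes held the same place in both samples under both alternatives tried. The 3 pairs with overlapping spot ranges in replicate 2 became 0 without the third position. No fit of treat was possible with a replicate left out, as a single sample leaves no residual degrees of freedom. No paired analysis was possible because the series holds a single group.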
